A study of Homo sapiens with 24 samples.

Results

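A group of 9 target genes of NRF2 was followed in A549 and H1975, 2 cell lines from human lung adenocarcinomas. The members were HMOX1, NQO1, GCLM, GCLC, TXNRD1, SRXN1, AKR1B10, AKR1C1 and OSGIN1. Every probe carrying one of these gene names was taken, which gave 12 of the 34127 probes and 9 of the 24655 named genes on the array, and all 12 probes passed the filter on dim signals. Cells of each line were kept with Pirfenidone, an antifibrotic drug, at 0.75 mg/ml, or with PBS as the control, and were sampled after 6 h or 24 h. This gave 8 groups of 3 samples (A549 with PBS or Pirfenidone at 6 h and at 24 h, and the same for H1975), with total RNA of each sample on its own single-color Agilent array, 24 arrays in all. A549 carries mutant KEAP1, whereas H1975 carries mutant EGFR. Each genotype was represented by a single cell line, so the mutations and all else that sets the lines apart cannot be told apart. The labels do not state whether the samples of a group were separate cultures, and p-values then measure only the spread between these samples, which may be technical.

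NRF2 (gene NFE2L2) is a transcription factor that KEAP1 binds and delivers to a CUL3 ubiquitin ligase for degradation. Oxidants and electrophiles modify KEAP1, and inactivating mutations impair it, and NRF2 is then free to enter the nucleus, pair with a small MAF protein and bind antioxidant response elements. BACH1 competes for the same elements, above all at HMOX1. The members cover the main arms of this program, namely heme breakdown (HMOX1), quinone reduction (NQO1), glutathione synthesis (GCLC and GCLM), the thioredoxin system (TXNRD1 and SRXN1), carbonyl reduction (AKR1B10 and AKR1C1) and growth inhibition under oxidative stress (OSGIN1).

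The core of the antioxidant response element, TGACNNNGC on either strand, was searched in the promoter windows of RefSeq (GRCh38.p14), which run from 250 bases before to 50 bases after the gene start. Windows were listed for 7 of the 9 members, 8 windows in all, as TXNRD1 has 2, and HMOX1 and AKR1B10 had no entry. The core was found in 3 of the 8 windows and in 13.3% of the 35116 windows of all genes. The 3 windows with a match are shown with that of AKR1C1, a member with a large difference between the lines and no match. Each stretch of 151 bases runs 5′ to 3′ from 150 bases before the start to the first base of the gene, and capitals mark the core.
GCLM, chr1:93909430-93909580, minus strand: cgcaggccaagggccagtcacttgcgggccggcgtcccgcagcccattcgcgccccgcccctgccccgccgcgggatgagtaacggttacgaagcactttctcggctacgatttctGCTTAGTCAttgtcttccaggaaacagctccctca
TXNRD1 window 1, chr12:104215629-104215779, plus strand: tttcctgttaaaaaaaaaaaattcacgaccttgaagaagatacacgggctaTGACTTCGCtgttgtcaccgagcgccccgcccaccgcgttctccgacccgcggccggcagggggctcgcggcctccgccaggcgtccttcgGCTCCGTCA
TXNRD1 window 2, chr12:104286882-104287032, plus strand: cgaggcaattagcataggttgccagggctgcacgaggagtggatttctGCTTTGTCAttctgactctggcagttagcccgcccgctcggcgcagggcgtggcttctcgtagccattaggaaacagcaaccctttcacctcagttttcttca
AKR1C1, chr10:4963265-4963415, plus strand: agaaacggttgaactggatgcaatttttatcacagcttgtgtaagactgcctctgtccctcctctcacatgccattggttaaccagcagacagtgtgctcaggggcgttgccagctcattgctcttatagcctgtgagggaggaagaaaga
The match of GCLM began 34 bases before the start. Those of TXNRD1 began 99 and 8 bases before the start in window 1 and 102 bases before it in window 2. The windows of NQO1, GCLC, SRXN1, AKR1C1 and OSGIN1 did not hold these letters, which says nothing of elements outside the windows.

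Levels are given as log2 normalized signals, that is, the log2 of the background-subtracted spot intensity minus the 75th percentile of its array, so that 0 marks that percentile. Levels of different probes are not set against each other, because probes differ in brightness. A difference was called where the p of limma, adjusted by Benjamini-Hochberg over the 23827 probes tested, was no higher than 0.05 and the change was at least 2-fold, in 1 fit of all 8 groups. The share of probes whose signal stood well above background ran from 62.7% to 69.5% over the arrays, with no saturated spot. The 6 epithelial markers all stood well above background in every A549 and H1975 sample. The CDKN2A signal lay at -2.33 to -0.88 in A549, a line known to lack this gene, and at 2.37 to 3.07 in H1975, and was well above background in both. Of markers of other cells, 2 of 4 of blood, 1 of 3 of endothelium and 2 of 4 of fibroblasts did so in every A549 sample, and 2 of 4, 3 of 3 and 2 of 4 in every H1975 sample, whereas DCN did so in none. Their part in the results was not tested. The arrays came in 4 runs, taken as the date part of the array file's name, and on 7 slides. Runs 1 and 3 held both lines, run 2 only A549 and run 4 only H1975. No slide held both lines, so slide and line cannot be told apart. The A549 pair of replicate 3 at 24 h stood apart. Its mean level over 54 genes of the G2/M phase was 0.88 with PBS and 2.07 with Pirfenidone, whereas the other pairs had 1.98 and 1.99 with PBS and 1.77 and 1.34 with Pirfenidone. Main A549 results at 24 h are therefore also given without this pair where it moved them. In such bulk RNA, fewer cells of a kind and less RNA per cell cannot be told apart.

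To see how far the lines differed without drug, H1975 was compared with A549 in PBS. Of the 12 member probes, 10 were called lower in H1975 at 6 h and 10 at 24 h, covering 7 of the 9 genes at each time, and none was called higher. AKR1C1 probe 3, among those called, passed the filter on dim signals through A549 alone, so it could only come out lower in H1975. Over all probes tested, 15.3% were called lower in H1975 at 6 h and 14.9% at 24 h, 3638 and 3560 probes, while 4071 and 4284 were called higher. The median difference of the member probes was -2.55 at 6 h and -2.67 at 24 h on the log2 scale, where all probes had medians of 0.06 and 0.08. The reductases AKR1B10 and AKR1C1 differed by 415-fold or more on the probes measured in both lines, NQO1, GCLC, TXNRD1, SRXN1 and OSGIN1 by 2.98- to 5.92-fold at 6 h, and GCLM and HMOX1 by less than 2-fold.

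AKR1B10, an aldo-keto reductase of aldehydes and retinal, had a level of 7.13, 6.99 and 7.05 in the A549 samples with PBS at 6 h and of -3.17, -2.30 and -2.53 in H1975 (probe at chr7:134225939-134225998, hg19). All A549 samples lay far above the 75th percentile of their arrays and all H1975 samples below it, with no overlap. The difference was -9.72 ± 0.26 (SE, n = 3), or 844-fold, with an adjusted p of 1.1e-16 in limma. At 24 h A549 had 7.08, 7.13 and 7.19 and H1975 had -1.48, -1.35 and -1.85, a difference of -8.70 or 415-fold. The second AKR1B10 probe gave -9.73 and -8.73.

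AKR1C1, an aldo-keto reductase of steroids and aldehydes, had 6.42, 6.17 and 6.32 in A549 with PBS at 6 h and -4.10, -2.87 and -2.89 in H1975 (probe at chr10:5019910-5019969, hg19). The groups did not overlap, and the H1975 samples were further apart than those of A549. The difference was -9.59 ± 0.36 (SE, n = 3), or 772-fold, at 6 h and -9.19 or 585-fold at 24 h, with limma's adjusted p at 2.2e-14 and 4.5e-14. A second probe gave -9.41 and -9.25. Probe 3, a dimmer one, was well above background in A549 and on no H1975 array. Its signal was at least 29.3-fold higher in A549 at 6 h and at least 37.0-fold higher at 24 h, a bound set by the lowest signal well above background on each H1975 array. AKR1C1 is closely related in sequence to AKR1C2 and AKR1C3, and the part of these genes in its probes' signal was not tested.

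NQO1, a quinone reductase widely used as a readout of NRF2, had 2.03, 1.97 and 1.86 in A549 with PBS at 6 h and -0.76, -0.55 and -0.51 in H1975, in order of level (probe at chr16:69744274-69744333, hg19). The groups were far apart, with SDs of 0.085 in A549 and 0.133 in H1975. The difference was -2.57 ± 0.11 (SE, n = 3), or 5.92-fold, at 6 h and -2.65 or 6.28-fold at 24 h, with limma's adjusted p at 1.5e-13 and 9.2e-14.

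GCLC and GCLM encode the catalytic and the modifier subunit of glutamate-cysteine ligase, which sets the pace of glutathione synthesis. GCLC had 2.56, 2.29 and 2.51 in A549 with PBS at 6 h and 0.03, -0.12 and -0.15 in H1975 (probe at chr6:53362197-53362256, hg19). The groups did not overlap, and the difference was -2.53 ± 0.17 (SE, n = 3) or 5.79-fold (adjusted p = 1.5e-10 in limma). At 24 h it was -2.69 or 6.44-fold. GCLM had 1.97, 1.45 and 1.42 in A549 and 0.10, 0.76 and 1.32 in H1975 at 6 h (probe at chr1:94352810-94352869, hg19). All H1975 samples lay below all A549 samples, but the H1975 samples were far apart. The GCLM difference of -0.88 ± 0.30 (SE, n = 3) had an adjusted p of 0.0169 in limma and that of -0.86 at 24 h an adjusted p of 0.0197, and neither reached 2-fold. Without the A549 pair of replicate 3 at 24 h, the GCLM difference at 24 h was -0.80 with an adjusted p of 0.0646 in limma.

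TXNRD1, the cytosolic thioredoxin reductase, spanned 1.64 to 1.85 in A549 with PBS at 6 h and -0.72 to -0.42 in H1975, and was 4.94-fold lower in H1975 (log2 difference -2.30 ± 0.15, SE, n = 3). SRXN1, sulfiredoxin, which repairs overoxidized peroxiredoxins, spanned 4.64 to 4.79 in A549 and 2.97 to 3.21 in H1975, and was 2.98-fold lower (-1.57 ± 0.15). OSGIN1, an oxidative stress-induced growth inhibitor, spanned 0.31 to 0.90 in A549 and -1.75 to -1.51 in H1975, and was 4.70-fold lower (-2.23 ± 0.18). The groups of these 3 genes did not overlap. They were called at 24 h too, with log2 differences of -2.23, -1.80 and -2.53. The highest adjusted p among them in limma was that of SRXN1, 3.2e-08 at 6 h and 4.7e-09 at 24 h.

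HMOX1, heme oxygenase, which breaks heme down to biliverdin, iron and carbon monoxide, had the smallest difference of the 12 probes at both times. Its levels with PBS at 6 h were 5.40, 5.05 and 4.84 in A549 and 4.75, 4.62 and 4.52 in H1975 (probe at chr22:35790122-35790181, hg19, the mean of 10 spots). At 24 h they were 5.53, 5.33 and 4.77 in A549 and 4.08, 4.23 and 5.09 in H1975. The groups were apart by a small gap at 6 h and overlapped at 24 h, where 1 H1975 sample, of run 1, stood above the lowest A549 sample, also of run 1. The difference was -0.47 ± 0.29 (SE, n = 3) with an adjusted p of 0.185 in limma and a 95% confidence interval of -1.09 to 0.15 at 6 h. It was -0.74 ± 0.29 with an adjusted p of 0.0372 at 24 h, under 2-fold. Without the A549 pair of replicate 3, the 24 h difference was -0.96 with an adjusted p of 0.0181 in limma. Within runs 1 and 3 it was 0.32 and -1.25 at 24 h, of opposite direction, and -0.09 and -0.43 at 6 h. With run as a block the adjusted p in limma was 0.507 at 6 h and 0.122 at 24 h. For the other 11 probes the difference was negative in both runs at both times.

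**Figure D1:**
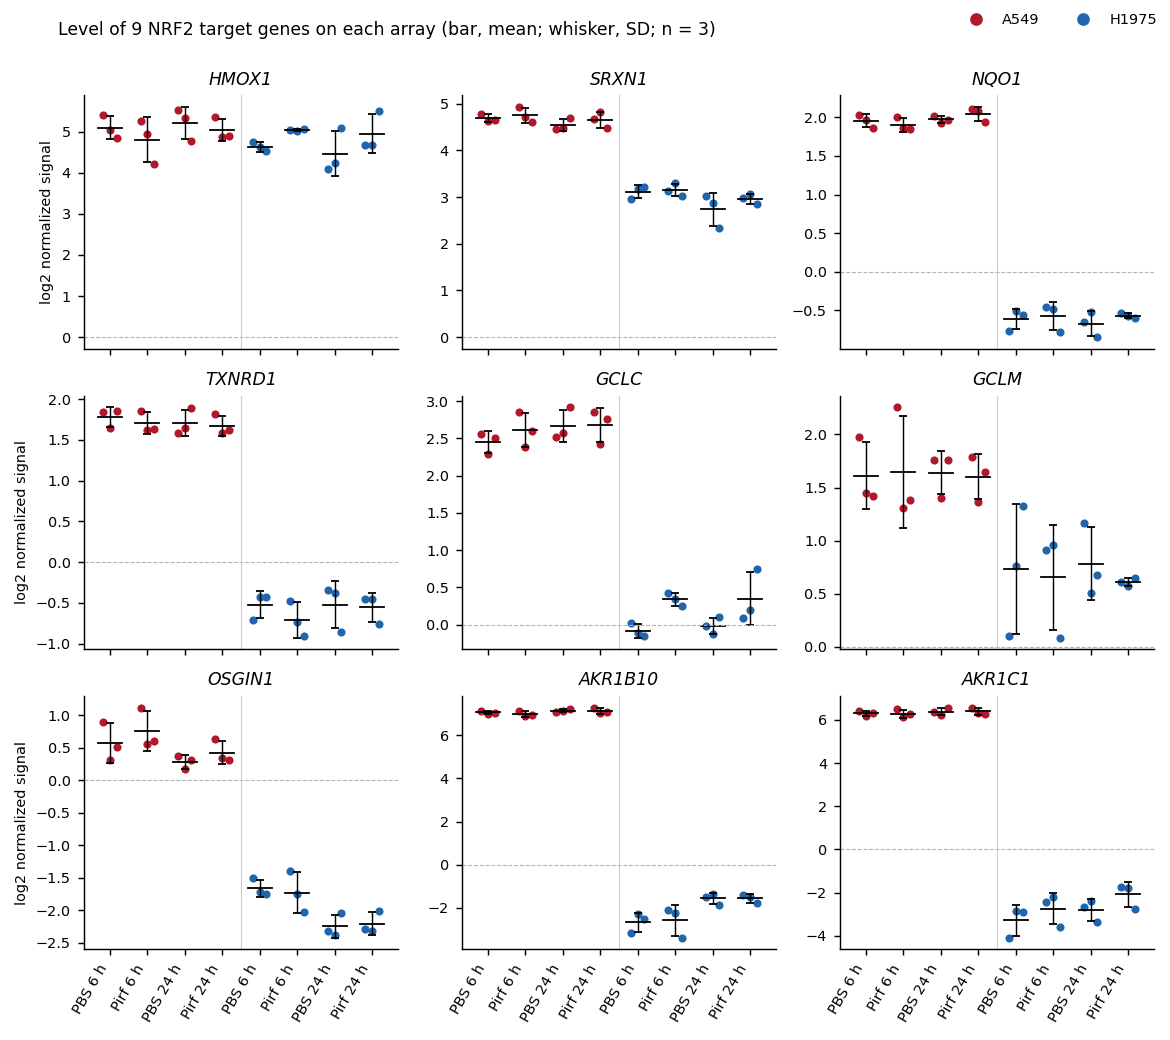
Log2 normalized signal (y axis) of the brightest probe of each member on each array, by line, treatment and time (x axis), where points are arrays, bars means and whiskers the SD of 3 samples, red A549 and blue H1975, and each panel has its own y axis. AKR1B10 lies between 6.88 and 7.28 in A549 and between -3.39 and -1.35 in H1975, whereas the HMOX1 samples of both lines lie between 4.08 and 5.53.

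**Figure D2:**
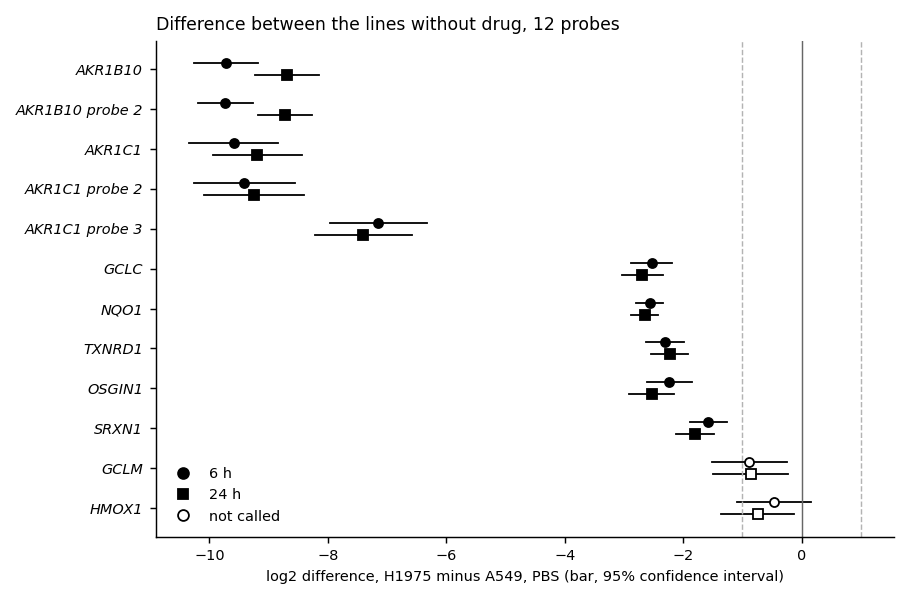
Log2 difference between H1975 and A549 with PBS (x axis) for the 12 member probes (y axis), at 6 h (circles) and 24 h (squares), with 95% confidence intervals from limma, where filled symbols were called and dashed lines mark a 2-fold change. The symbols of GCLM and HMOX1 are open, all others are filled and lie at -1.57 or below, and the measured values of AKR1C1 probe 3 include H1975 signals at background.

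The wider pathway was read through 7 lists of other NRF2 genes, 60 genes in all, of which 59 were on the array under these symbols and 57 were tested. In H1975 with PBS, 38 of 57 were called lower and 1 higher than in A549 at 6 h, and 38 lower and 2 higher at 24 h, with medians of -1.57 and -1.68. Over all probes tested, 15.3% were called lower in H1975 at 6 h and 14.9% at 24 h. NR0B1 and CYP4F11 passed the filter on dim signals through A549 alone, so they could only come out lower in H1975. Both are part of these counts and medians and of those below. The 24 h counts also include the A549 pair of replicate 3, on which the calls of NFE2L1 and KEAP1, given below, depend. The 48 tested genes that are targets rather than regulators had medians of -2.01 and -2.07, with 35 and 34 called lower. By role at 6 h, 9 of 12 glutathione genes were called lower, 2 of 5 thioredoxin genes, 5 of 6 genes of NADPH supply, 12 of 13 genes of carbonyl and drug metabolism, 4 of 7 genes of heme and iron handling and 3 of 5 others. NR0B1, an orphan nuclear receptor, had a mean of 3.83 in A549 and was not well above background in H1975. On this probe the difference was at least 2421-fold at 6 h and 2086-fold at 24 h. Another NR0B1 probe gave log2 differences of -5.86 and -5.32, both called. At 6 h ALDH3A1, an aldehyde dehydrogenase, differed by -11.92 and GPX2, a glutathione peroxidase, by -10.64. Their H1975 means of -6.77 and -6.58 lay near the lowest signals well above background, on average -7.41, so these sizes rest on weak signals. ABCC2, an exporter of glutathione conjugates, differed by -6.79 at 6 h. CYP4F11, a fatty acid hydroxylase, was not well above background in H1975 and at least 69.0-fold higher in A549 at 6 h and 66.1-fold at 24 h. GSTM3, a glutathione S-transferase, was called higher in H1975, by 1.04 at 6 h.

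Among the regulators, 3 of 9 tested were called lower in H1975 at 6 h, and 4 were called lower and 2 higher at 24 h. The 24 h counts include the A549 pair of replicate 3, which stood apart. Without that pair the group means put NFE2L1, called lower, and KEAP1, called higher, under 2-fold, so neither would be called. The small MAF genes differed in opposite directions. MAFG differed by -1.42 and MAFK by -1.94 at 6 h, both called at both times, whereas MAFF was higher in H1975, by 0.92 at 6 h, under 2-fold, and by 1.30 at 24 h, called. SQSTM1, which draws KEAP1 into autophagy, differed by -1.37 at 6 h and -1.28 at 24 h, called at both times. KEAP1 itself had 1.14, 1.09 and 1.13 in A549 with PBS at 6 h and spanned 1.84 to 2.18 in H1975. It was higher in H1975 by 0.95 at 6 h, which did not reach 2-fold, and by 1.18 at 24 h, which was called (adjusted p = 4.7e-05 in limma). The A549 samples with PBS at 24 h spanned 0.41 to 1.02 for KEAP1, and the lowest was that of replicate 3, of the pair that stood apart. Without that pair the group means put the KEAP1 difference just under 2-fold, so the call at 24 h rests on the pair. The p without the pair is not given. BACH1 differed by 0.03 and -0.05 (adjusted p = 0.882 and 0.826 in limma). The probes of CUL3 did not give the same result. Its brightest probe, used for the counts, was not called. Another CUL3 probe differed by -2.58 at 6 h and -2.89 at 24 h, both called (adjusted p = 9.6e-06 and 2.3e-06 in limma). The NFE2L2 probe was not well above background on any array and was not tested.

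Pirfenidone was then compared with PBS in each line and time, to see whether the drug altered these genes. None of the 12 member probes was called in any of the 4 comparisons, against 0.176% of all probes at 6 h and 0.0126% at 24 h in A549, and 0.491% and 1.89% in H1975. At an unadjusted p under 0.05 in limma there were 0, 0, 1 and 1 member probes, GCLC in both H1975 comparisons. The share of all probes at this p is not given, so these counts are not read as a result. The differences of the member probes spanned -0.30 to 0.25 at 6 h and -0.17 to 0.18 at 24 h in A549, and -0.18 to 0.55 and -0.26 to 0.72 in H1975. The 95% confidence interval lay within 2-fold in either direction for 11 of 12 probes in each A549 comparison and for 8 of 12 in each H1975 comparison. The exceptions were AKR1C1 probe 3 in A549, and HMOX1 and the 3 AKR1C1 probes in H1975. Without the A549 pair of replicate 3, no member probe was called in A549 at 24 h, and the share of all probes called in that setting is not given. The differences of the 12 probes then ran from -0.32 for HMOX1 to 1.07 for AKR1C1 probe 3 (adjusted p = 0.909 and 0.332 in limma), with 0.09 for GCLC and 0.15 for AKR1C1. The 95% confidence interval of AKR1C1 probe 3 was 0.36 to 1.77 there.

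AKR1C1 had -2.45, -2.19 and -3.58 in H1975 with Pirfenidone at 6 h and -1.74, -1.78 and -2.74 at 24 h, against PBS values of -4.10, -2.87 and -2.89 at 6 h and -2.68, -2.39 and -3.36 at 24 h. Treated and PBS samples overlapped at both times, and in each group the array of run 1 was the lowest. The difference was 0.55 ± 0.36 (SE, n = 3) at 6 h with a 95% confidence interval of -0.20 to 1.30, and 0.72 ± 0.36 at 24 h with an interval of -0.03 to 1.47, with adjusted p of 0.669 and 0.248 in limma. Leaving out a sample moved it to between 0.14, without PBS replicate 1, and 0.97, without Pirfenidone replicate 3, at 6 h and to between 0.45, without PBS replicate 3, and 1.05, without Pirfenidone replicate 3, at 24 h. Within runs 1, 3 and 4 it was 0.52, 0.42 and 0.69 at 6 h and 0.62, 0.94 and 0.61 at 24 h, higher with drug in 6 of 6 pairs. With run as a block the adjusted p in limma was 0.00744 at 6 h and 0.00105 at 24 h, at the same sizes under 2-fold. The second probe gave 0.42 and 0.68, with an adjusted p of 0.0267 under the run block at 24 h, and probe 3, at background, 0.31 and -0.26. The 6 h value of the second probe was -0.12 without PBS replicate 1. In A549 the AKR1C1 differences were -0.02 and 0.01. The difference between the lines in the drug change was 0.56 at 6 h and 0.71 at 24 h, with adjusted p of 1 and 0.636 in limma, and 0.171 and 0.0229 with run as a block, and it was 0.58 at 24 h without the A549 pair of replicate 3 (adjusted p = 0.976). With the run block and no fold limit, 6.83% of all probes passed in H1975 at 6 h and 21.8% at 24 h, beside 1 and 2 of the 12 member probes.

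GCLC had 0.42, 0.35 and 0.24 in H1975 with Pirfenidone at 6 h and 0.10, 0.20 and 0.75 at 24 h, against PBS values of 0.03, -0.12 and -0.15 at 6 h and -0.02, -0.12 and 0.10 at 24 h. All drug-treated samples lay above all PBS samples at 6 h, while at 24 h the lowest treated sample lay just below the highest PBS sample. The difference was 0.42 ± 0.17 (SE, n = 3) at 6 h and 0.37 ± 0.17 at 24 h, with adjusted p of 0.319 and 0.206 in limma, and 0.0788 and 0.0661 with run as a block. It was positive within each of the 3 runs at both times, from 0.12 to 0.65. In A549 the GCLC differences were 0.16 and 0.01.

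HMOX1 had 5.05, 5.01 and 5.07 in H1975 with Pirfenidone at 6 h and 4.68, 4.66 and 5.50 at 24 h, and 5.27, 4.93 and 4.20 at 6 h and 5.35, 4.87 and 4.90 at 24 h in A549. Set beside the PBS values above, the H1975 groups did not overlap at 6 h and overlapped at 24 h, and the A549 groups overlapped at both times. The differences were 0.41 ± 0.29 and 0.48 ± 0.29 (SE, n = 3) in H1975, with adjusted p of 0.714 and 0.366 in limma, and -0.30 and -0.17 in A549. They were positive within each H1975 run, from 0.32 to 0.60. HMOX1 and GCLC were the 2 of 12 member probes whose H1975 groups did not overlap at 6 h, where 17.8% of all probes tested did not overlap.

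The remaining members had small differences with the drug. The largest in size over the 4 comparisons were -0.17 for GCLM and -0.18 for TXNRD1, both in H1975, 0.22 for SRXN1 in H1975 at 24 h, 0.19 for OSGIN1 in A549 at 6 h, and 0.10 for NQO1 and AKR1B10 in H1975. No member probe was called for a difference of the drug change between the lines (0.0336% of all probes at 6 h and 0.193% at 24 h) or between 6 h and 24 h (0.0294% in A549 and 0.0042% in H1975). None of the 12 had an unadjusted p under 0.05 in limma in these 4 contrasts, a count of 0. The intervals were wide, and that of HMOX1 between the lines at 6 h ran from -0.16 to 1.58 around 0.71.

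**Figure D3:**
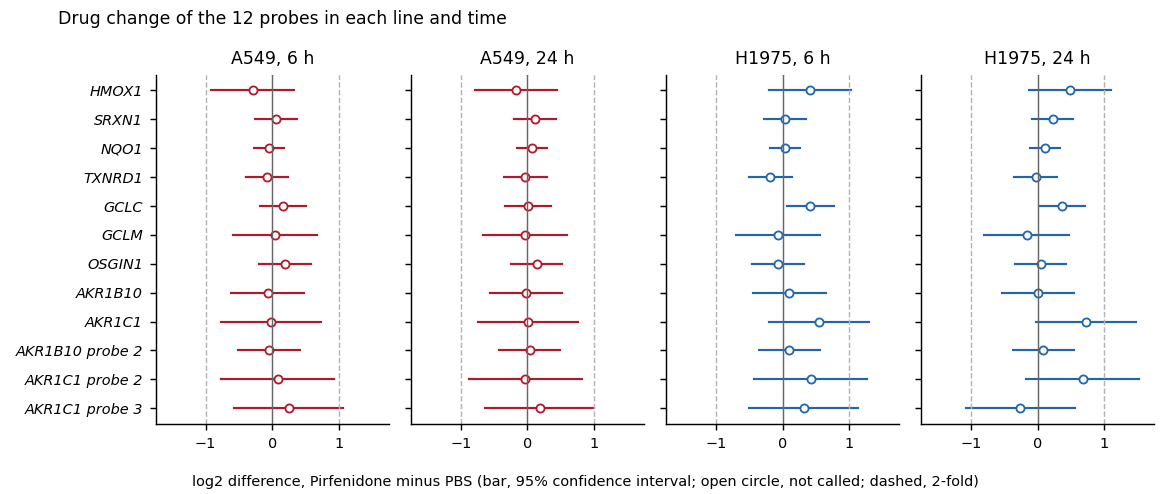
Log2 difference between Pirfenidone and PBS (x axis) of the 12 member probes (y axis) in each line and time, with 95% confidence intervals from limma, where dashed lines mark a 2-fold change in either direction. All circles are open, since no probe was called, and all differences lie between -0.30 and 0.72.

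**Figure D4:**
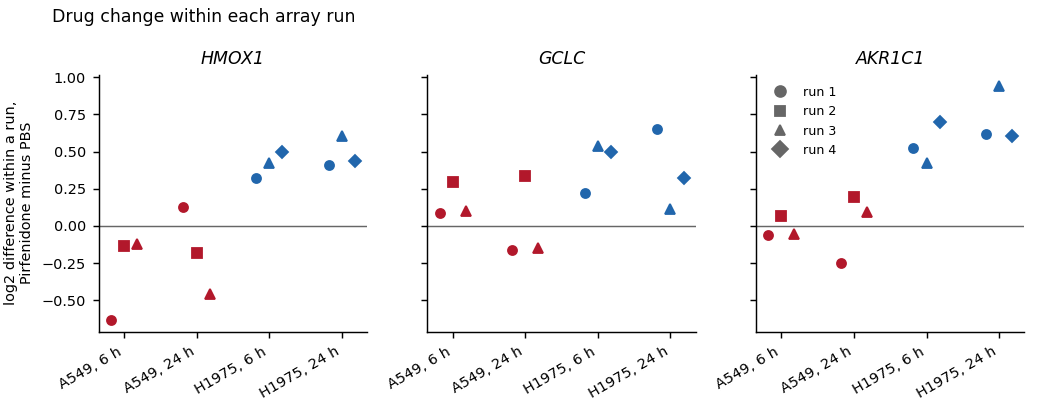
Log2 difference between the Pirfenidone and the PBS array of the same run (y axis) for HMOX1, GCLC and AKR1C1 in each line and time (x axis), where symbols mark the run, red is A549 and blue H1975. All H1975 points lie above 0, between 0.12 and 0.94, whereas those of A549 lie on both sides of 0 for each gene at 24 h, for HMOX1 and AKR1C1 because of run 1, the pair that stood apart. Of all 12 member probes, 4 at 6 h and 5 at 24 h were higher with the drug in every H1975 run, and 1 at each time was lower in every run. The share of all probes with the same sign in every run is not given.

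Of the 57 other pathway genes tested, none was called in A549 in the main fit of all samples, which has no block. In H1975, 2 were called higher at each time, SLC7A11 and SESN2, against 0.399% and 0.89% of all probes called higher in H1975 at 6 h and 24 h. SLC7A11, the cystine importer that feeds glutathione synthesis, had 1.50, 1.54 and 1.29 with Pirfenidone and -0.76, 0.16 and 0.23 with PBS in H1975 at 6 h. The groups were far apart. It rose by 1.56 ± 0.27 (SE, n = 3, adjusted p = 0.00544 in limma) at 6 h and by 2.18 ± 0.27 (adjusted p = 2.4e-04) at 24 h. Its drug change at 24 h was larger in H1975 than in A549 by 2.14 (adjusted p = 0.0224 in limma for the difference), and without the A549 pair of replicate 3 by 1.76, which was not called (adjusted p = 0.158). At 6 h the drug change of SLC7A11 was larger in H1975 by 0.98, not called. In A549 the SLC7A11 difference was 0.58 at 6 h, not called, and positive within all 3 runs (0.39, 0.29 and 1.06). At 24 h it was 0.04 in A549, and 0.43 without the pair of replicate 3. With PBS the SLC7A11 level was lower in H1975 than in A549. The log2 difference was -3.03 at 6 h and -4.30 at 24 h, both called. SESN2, a stress-induced protein that acts on KEAP1 degradation and on mTORC1, had -0.49, -0.61 and 0.60 with Pirfenidone and -1.77, -2.09 and -2.23 with PBS in H1975 at 6 h. It rose by 1.86 ± 0.35 at 6 h and 1.79 ± 0.35 at 24 h (adjusted p = 0.0103 and 0.00829 in limma). In A549 at 6 h the SESN2 difference was 1.61 with an adjusted p of 0.0623 in limma, higher within all 3 runs (2.40, 0.90 and 1.51 in runs 1, 2 and 3), and it was called with run as a block (adjusted p = 0.0126). The drug changes of the lines at 6 h were not shown to differ (0.26, adjusted p = 1 in limma). Both genes are also known targets of ATF4, a factor of the amino acid stress response. Of the regulators, SQSTM1, BACH1 and NFE2L1 differed by 0.58, 0.59 and 0.45 in H1975 at 24 h, under 2-fold. Their adjusted p in limma was 0.0224, 0.0400 and 0.0482. The share of all probes that pass without the fold limit is not given, so these values are not read as a result. The median over the 57 genes lay between -0.02 and 0.12 in the 4 comparisons, where that over all probes lay between -0.02 and 0.05.

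**Figure D5:**
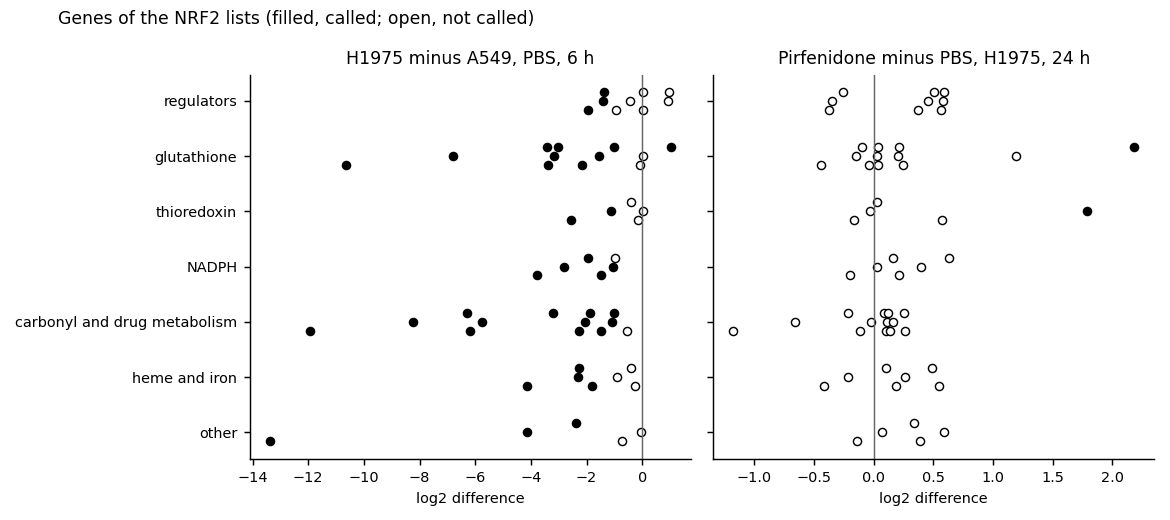
Log2 difference (x axis) of the 57 tested genes of the NRF2 lists, by list (y axis), between H1975 and A549 with PBS at 6 h (left) and between Pirfenidone and PBS in H1975 at 24 h (right), where each point is the brightest probe of a gene, filled if called, and the panels have different x axes. On the left 38 genes are called lower, among them NR0B1 and CYP4F11, which were tested through A549 alone, and 1 higher. On the right SLC7A11 and SESN2 are the 2 filled points.

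The 24 h samples with PBS were also compared with the 6 h samples, to see whether the members shifted with time in culture. None of the 12 probes was called in A549 (0.109% of all probes), and 0 had an unadjusted p under 0.05 in limma. In H1975 the second AKR1B10 probe was called (0.315% of all probes). It had a mean of -2.83 at 6 h and -1.74 at 24 h, and rose by 1.09 ± 0.22 (SE, n = 3, adjusted p = 0.0230 in limma), a call that was lost when any of 4 of the 6 samples was left out (PBS replicate 1 or 3 at 6 h, or 1 or 2 at 24 h). The brightest AKR1B10 probe differed by 1.11 with an adjusted p of 0.0578 in limma, and with run as a block it was called (adjusted p = 5.8e-04). AKR1C1 differed by 0.48, under 2-fold, with an adjusted p of 0.756 in limma and 0.0160 with run as a block. In H1975, 4 of the 12 probes had an unadjusted p under 0.05 in limma. The share of all probes at that p is not given, so neither this count nor that of A549 is read as a result. For 3 of the 12 probes the H1975 groups did not overlap, as was so for 18.9% of all probes. OSGIN1 differed by -0.59, from -1.51, -1.72 and -1.75 at 6 h to -2.33, -2.38 and -2.05 at 24 h, at an adjusted p of 0.177 in limma and 0.0230 with run as a block.

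Over the 12 arrays of a line, the 9 members did not vary as a single unit. Of the 36 pairs of members, 35 had a Pearson r above 0 in A549, with a median of 0.51, from -0.02 for HMOX1 with SRXN1 to 0.87 for AKR1B10 with AKR1C1. In H1975 23 pairs were above 0, with a median of 0.15, from -0.78 for HMOX1 with TXNRD1 to 0.83 for HMOX1 with GCLC. These values are descriptions over 12 arrays that share treatments, times and runs. Of other genes, those most like HMOX1 were PRDM13, CHD7 and MGA in A549 (r = 0.96, 0.95 and 0.95 over 12 arrays) and ZNF543, KIF3A and STAG3L4 in H1975 (r = 0.94 for each). Those most like the mean of the other 8 members were ZNF333, RPS21 and C8G in A549 and EFEMP2, PPP2R5B and THBS3 in H1975, with r from 0.94 to 0.98. These genes are the highest of 19975 probes in A549 and 21022 in H1975. An r above 0.8 was reached by 382 and 340 probes with HMOX1, and by 402 and 1539 with the mean of the others.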

How the data were processed

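The scanner files of 24 single-color arrays hold spot intensities that the authors made with Agilent Feature Extraction 11.5.1.1, which subtracts background and marks outlier spots and spots well above background, with probe positions on hg19. The deposited table of log2 values of the same arrays, 34183 probes centered on their medians over the arrays (column medians -0.163 to 0.156), served as an alternative. Its scale and direction were those of the scanner values, while the sources used here do not give how its arrays were scaled.

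From the log2 processed signal of each spot, the 75th percentile of the 43118 non-control spots on that array was subtracted, outlier spots were dropped and the spots of a probe averaged. The 23827 probes that stood well above background in every sample of any group entered limma 3.58.1 in R 4.3.3 (lmFit and eBayes, 8 groups, 16 residual degrees of freedom). The fold limit follows the study. Its family-wise permutation adjustment cannot reach 0.05 with 3 samples against 3, so Benjamini-Hochberg adjustment was used. The fit was tested on simulated data. The G2/M genes were those listed in Seurat 5.3.0. A list gene was read by its brightest probe, and no set test was run. The number of arrays limits the precision.

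Members and lists were chosen with earlier results of these data known. Named were the members, 7 regulators and the 3 genes most alike. Up to 5 called list genes with the largest change in each direction of each comparison were also named. SLC7A11 between the lines, NFE2L1 and CUL3 were named after their values were seen. The accessions of 11 of 12 member probes matched RefSeq. Groups and replicate numbers came from the labels. In A549, and in H1975 at 24 h, replicate number and run mark the same pairs, and in H1975 at 6 h they do not. Alternatives covered background correction, scaling, filters, run, slide and replicate blocks, the methods' t-test and left-out samples.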

Additional observations from a re-analysis of the deposited data

Results flagged for a closer look

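At 6 h the HMOX1 differences between Pirfenidone and PBS within runs had opposite signs in the lines, -0.63, -0.14 and -0.12 in the 3 A549 runs and 0.32, 0.42 and 0.50 in the 3 H1975 runs on the log2 scale. The drug change was higher in H1975 by 0.71, and this difference did not pass the test (adjusted p = 1 in limma, and 0.407 with run as a block).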

How the results depend on the processing

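No called result reversed, while differences that were not called changed sign in part, as that of the second AKR1C1 probe in H1975 at 6 h (0.42, and -0.12 without PBS replicate 1), and 335 of 358 counts stayed within 1.5 times. Between the lines, 10 of 12 member probes were called at both times under every alternative that kept all samples, except 9 where probes had to be well above background on all arrays, which leaves out AKR1C1 probe 3, and 11 and 12 without the fold limit, and 10 to 11 when a sample was left out. HMOX1 at 24 h reached -1.05 without H1975 PBS replicate 3, GCLM at 6 h -1.18 without H1975 PBS replicate 3 and GCLM at 24 h -1.05 without H1975 PBS replicate 1, all called. No member probe was called for the drug under any single alternative, while with run as a block and no fold limit together, chosen after seeing the data, AKR1C1 passed in H1975 at 6 h and AKR1C1 and its second probe at 24 h. The member probes called between 24 h and 6 h in H1975 with PBS, 1 in the report, were 0 with normexp and with only the arrays compared, 2 (both AKR1B10 probes) with run and 2 with the strict filter, with slide and with the replicate block within each line, and 0 to 1 when a sample was left out, and with probes averaged per gene 1 gene was called instead of 0. The list genes called for Pirfenidone were 1 (SESN2) instead of 0 in A549 at 6 h with the strict filter, with run, with slide and without the A549 pair of replicate 3 at 24 h. In H1975 at 6 h they were 0 instead of 2 with only the arrays compared and with the methods' t-test after Benjamini-Hochberg adjustment, and 1 to 2 when a sample was left out, 1 without PBS replicate 3 or Pirfenidone replicate 3. In H1975 at 24 h they were 4 with run (SLC7A11, SESN2, ABCC3 and CES1), 7 without the fold limit, 0 with the methods' t-test after that adjustment, and 1 to 2 when a sample was left out, 1 without Pirfenidone replicate 3. With only the arrays compared, SLC7A11 and ABCC3 were called at 24 h and SESN2 was not. Beside SLC7A11 and SESN2, ABCC3 was called without the A549 pair of replicate 3, and CES1 with slide and with the replicate block within each line. These calls are of the brightest probes, which with run gave 1.19 for ABCC3 and -1.18 for CES1. Other probes of these genes did not show the change. In the main fit they gave -0.25 for ABCC3 and -0.08 and -0.13 for CES1, none called. The cause was not tested. In H1975 at 6 h, 95 probes were called higher and 22 lower with the drug, 113 and 5 with normexp, which moved the median of all probes from 0.05 to 0.29 and that of the members from 0.10 to 0.32, and 69 and 29 with quantile scaling. Samples of the same number deviated together with r of -0.48, 0.43 and -0.68 in H1975 at 6 h, where those of the same run gave 0.82, 0.50 and 0.70, so the numbers were not taken as pairs. The replicate block across the lines was chosen after seeing the data, and left 10 probes called. Signal over background limits AKR1C1 probe 3 in H1975 to a bound.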
